A study of Homo sapiens with 8 samples.

Results

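The ZNF-named zinc finger genes were examined in human cells with and without the exoribonuclease XRN1. A gene was included when its name was ZNF followed by digits and at most 1 letter. ZNF598 and names with a hyphen, which stand for readthrough transcripts, were left out. The rule gave 237 genes of the 10105 in the count table, and it used names and no measured value. All 237 were analysed with no further filter on low counts, but the table holds only genes above an FPKM (fragments per kb per 1 M mapped) of 2 by the authors' selection, so weakly expressed ZNF genes are not analysed here. The label held in the sequence: of the 232 with an annotated protein in the reference used here, 228 carried at least 1 match to the C2H2 zinc finger pattern and 4 had none. A finger of this type is a short loop held by 2 cysteines and 2 histidines around a zinc ion.

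Most ZNF proteins bind DNA through a row of such fingers joined by a conserved linker. The largest subfamily carries a KRAB (Krüppel-associated box) domain, which recruits TRIM28 and through it the histone methyltransferase SETDB1 and HP1 proteins, and is known for silencing transposons and imprinted loci. Other members carry a SCAN domain, which pairs proteins with each other, and others lack both boxes and act as activators, cofactors or RNA-binding proteins. Many KRAB genes arose by repeated duplication in clusters on chromosome 19, so that their coding sequences resemble each other. XRN1 degrades decapped mRNA from the 5′ end in the cytoplasm.

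The study compared wild-type (WT) HEK293T cells, an embryonic kidney line, with an XRN1-null line made from them by CRISPR/Cas9 with a guide against exon 6 of XRN1. Whether the null line is a single clone is not stated in the sources used here, so a difference between the genotypes and a difference between these lines cannot be told apart. Both genotypes were harvested 24 h after plating on 15 cm dishes, with no other treatment named. Total mRNA (RNA-Seq) and ribosome-protected fragments (RPF, by Ribo-Seq) were each measured in 2 biological replicates per genotype, 8 libraries in all.

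RNA-Seq libraries held 33757487 to 38145433 counts and Ribo-Seq libraries 1921641 to 4399542, with the fewest in WT Ribo-Seq replicate 1. Of 8 genes typical of this line, 6 were in the table, at WT mRNA levels of 8.60 to 401 CPM (counts per 1 M counts) per kb, and PAX2 and PAX8 were not. None of 6 markers of blood, liver, fibroblast and glial cells was in the table. The RNA-Seq counts of XRN1 itself were 1187 and 1084 in WT but 10655 and 9834 in libraries labelled XRN1-null, and its Ribo-Seq counts were 66 and 217 against 91 and 59. The log2 fold change of XRN1 was 3.01 in mRNA and -1.08 in RPF (edgeR FDR 0.0064 for RPF). Counts over the whole gene do not read the short deletion, and libraries are named here by their labels.

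Of the 237 genes, 236 were matched to the annotation of the GRCh37 genome. They comprised 232 protein-coding genes and 4 pseudogenes (ZNF204P, ZNF252P, ZNF271P and ZNF767P), and ZNF720 was not matched. By a script's search of all annotated proteins, 119 members carried a KRAB box, 12 a SCAN domain without KRAB, and 101 neither, with diverged KRAB boxes such as that of ZNF202 counted as neither or SCAN. Chromosome 19 held 83 members, chromosome 7 held 21, chromosome 16 held 19 and chromosome 1 held 15. The KRAB members had a median of 11 fingers and those with neither box 7, and their median GC contents were 42.4% and 51.3%, against 47.6% over all genes.

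A pair of 29-nt coding sequences is shown because 29 nt was the shorter footprint length kept by the study and because they were the windows found in the most members. A footprint from either of them could have come from any of the genes that hold it. The former carries the codons of a cysteine pair of a finger in capitals, and the latter the codons of the linker between fingers. Each is given as in ZNF100, on the minus strand of GRCh37 in exon 5 of 5, within the coding sequence.
Cysteine pair window (chr19:21910057-21910085): accctacaaaTGTGAAGAATGTggcaaag
Linker window (chr19:21910325-21910353): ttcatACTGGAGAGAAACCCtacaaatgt
Each window occurred in 14 members. The cysteine pair window was found in 81 annotated genes in all and the linker window in 70. Over the members, the median share of 29-nt coding windows that also occur in another annotated gene was 2.48%. It was 11.4% in the KRAB members and 0.222% in those with neither box. In 14 members at least 50% of the windows were shared, and 52 of the 232 had no shared window. A shared window can lie in a copy of the gene or in an annotated gene that overlaps it. Counts of members with many shared windows are therefore uncertain, since the sources used here do not say how reads with several matches were assigned. Exons of 70 members overlapped exons of another gene on the same strand and those of 85 a gene on the other strand, and strand use in the counting is not stated either.

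In WT cells the ZNF genes were expressed at low levels. The median member had 5.35 CPM per kb of mRNA, against 15.0 over all genes, and the range ran from 0.958 to 140. ZNF703, a cofactor of the NLZ family that is amplified in some breast tumours, had the most mRNA per length, with 140 ± 10 CPM per kb (SD, n = 2). ZNF768 followed with 90.1 ± 5.07, ZNF503, the close relative of ZNF703, with 89.0 ± 8.52, ZNF593 with 88.7 ± 0.902 and ZNF664 with 88.1 ± 1.65. These 4 did not differ beyond their spread. ZNF207, which binds BUB3 and microtubules at the spindle, had 76.1 ± 8.65. The lowest levels were those of ZNF674 (0.958 ± 0.0765), ZNF462 (1.08 ± 0.120), ZNF548 (1.43 ± 0.104) and ZNF426 (1.47 ± 0.153). In RPF per length, ZNF207 had 78.0 ± 26.0 CPM per kb, ZNF503 71.2 ± 2.46, ZNF593 68.3 ± 12.4 and ZNF703 63.4 ± 0.265. The spread of ZNF207 covered all of the other 3.

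KRAB members had less mRNA and a higher translational efficiency (TE, the CPM of RPF over the CPM of mRNA in the library of the same number) than those with neither box. Their median WT mRNA level was 3.58 CPM per kb against 9.21. Median TE in the 2 WT replicates was 0.772 and 0.942 in KRAB members and 0.548 and 0.648 in those with neither box, so the classes kept their order in both replicates. Over all genes the medians were 0.812 and 0.823. Of the 119 KRAB members, 40 lay above the upper quartile of WT TE over all genes and 21 under the lower quartile, while of the 101 with neither box 6 lay above and 44 under.

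Of the 162 members with at least 20 counts in each WT library, ZNF669 had the highest WT TE, 4.34 and 5.56 in the 2 replicates. ZNF674 followed with 5.21 and 3.99, ZNF283 with 4.30 and 3.55, and ZNF773 with 3.23 and 3.38. All 4 are KRAB genes with little mRNA, and the order of the top 3 was not the same in both replicates. At the other end were ZNF358 (0.193 and 0.122), ZNF664 (0.181 and 0.161), ZNF512B (0.158 and 0.195) and ZNF275 (0.194 and 0.184), none of which has either box. The ranges of these 4 overlapped, except those of ZNF664 and ZNF275. TE and mRNA level share the RNA-Seq counts, and a low mRNA count by itself raises the ratio. The table also has a readthrough row ZNF664-FAM101A, and whether reads of ZNF664 were split with it was not tested.

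**Figure D1:**
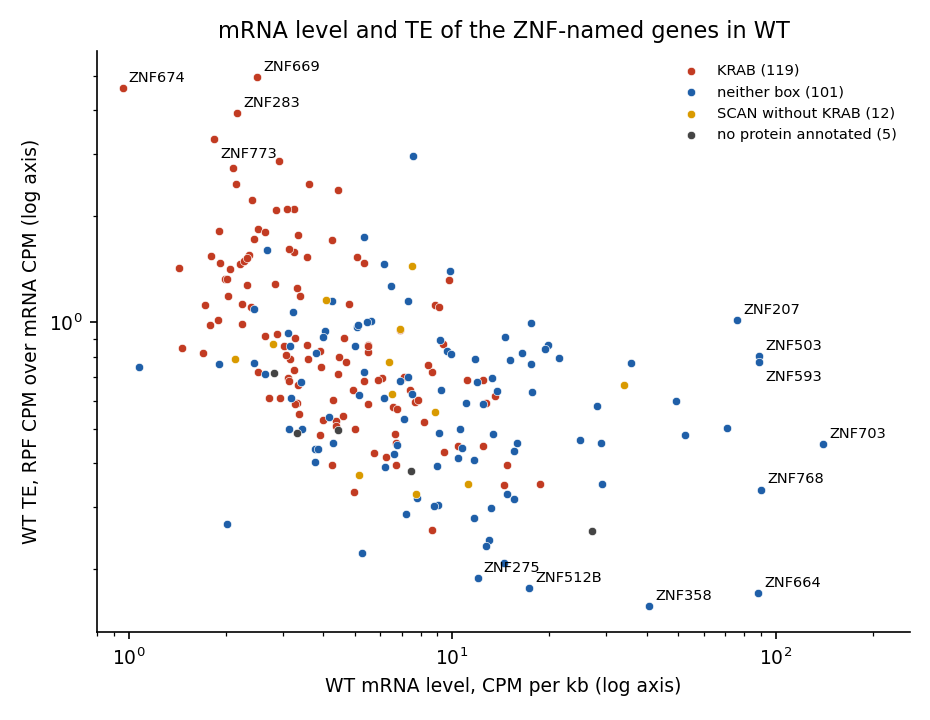
WT TE (RPF CPM over mRNA CPM, mean of 2 replicates, log axis) against WT mRNA level in CPM per kb (log axis) for the 237 ZNF genes, coloured by protein class. KRAB genes fill the upper left, with ZNF669 and ZNF674 at the top, and the genes with neither box reach from ZNF703 at 140 CPM per kb to ZNF358 at the bottom.

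The comparison of genotypes asked which ZNF mRNAs changed without XRN1. At an FDR (Benjamini-Hochberg adjusted p of edgeR's quasi-likelihood test over all genes) below 0.005, 43 members were higher and 45 lower in XRN1-null cells, and 149 passed in neither direction. Without XRN1-null RNA-Seq replicate 1 the counts were 29 and 26, and without XRN1-null RNA-Seq replicate 2 they were 31 and 26, while of all 10105 genes 1632 and 1113, and 1652 and 1097, were called in those fits. The background was of like size: 22.9% of all genes were higher and 23.2% lower, and among members these shares were 18.1% and 19%. The median mRNA log2 fold change of members was -0.01, and that of all genes was -0.01. No member was under 2 CPM per kb of mRNA in its highest RNA-Seq library, and 9 had a mean under 2 in WT only, of which 7 were called higher, and 10 in XRN1-null only, of which 5 were called lower. Among the 213 at 2 or more in both genotypes, 36 were higher and 40 lower. Calls ranged from 0.36 to 2.44 among the higher and from -1.57 to -0.31 among the lower members. As a share of all counts, the members took 0.840% and 0.827% in WT RNA-Seq and 0.905% and 0.899% in XRN1-null RNA-Seq. In bulk libraries a change in some of the cells and a change in every cell cannot be told apart.

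Named by rule, the 8 largest rises among the called members were headed by ZNF767P, a transcribed pseudogene on chromosome 7, with 14.8 and 10.3 CPM in WT and 68.0 and 68.9 in XRN1-null, a log2 fold change of 2.44 ± 0.14 (SE; FDR 1.4e-05). ZNF335, a subunit of a nuclear receptor coregulator complex that is required for neural progenitors to divide, had 41.1 and 39.6 CPM in WT and 159 and 157 in XRN1-null (1.97 ± 0.06, FDR 2.5e-06). For the KRAB gene ZNF383 on chromosome 19, the values were 4.12 and 3.78 CPM in WT and 15.2 and 14.4 in XRN1-null (1.90 ± 0.11, FDR 1.5e-05). These 3 genes rose by more than any other member, and replicates of a genotype lay close together beside the gap.

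The X-linked KRAB gene ZNF674 went from 3.70 and 4.14 CPM in WT to 11.4 and 10.7 in XRN1-null (1.49 ± 0.12, FDR 5.0e-05). ZNF692 had 19.3 and 15.0 CPM in WT against 45.9 and 47.5 (1.44 ± 0.11), and ZNF654 had 10.7 and 8.22 against 21.5 and 21.4 (1.18 ± 0.13). ZNF462, a large protein that takes part in heterochromatin control in development, had 9.66 and 8.25 CPM in WT and 19.6 and 17.2 in XRN1-null (1.04 ± 0.12, FDR 0.00020). ZNF410, a transcription factor known for CHD4 as its main target, had 65.1 and 60.5 CPM against 127 and 123 (0.99 ± 0.07). ZNF674, ZNF654 and ZNF462 had under 2 CPM per kb of mRNA in WT and over 2 in XRN1-null, so the selection at an FPKM of 2 may have kept them through the genotype where they are high, and such genes had to differ. Of the ZNF410 windows, 96.3% occur in an overlapping annotated gene, so its counts cannot be assigned to it alone.

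Among the 8 largest falls, ZNF239 had 12.1 and 13.0 CPM in WT and 4.07 and 4.34 in XRN1-null (-1.57 ± 0.12, FDR 3.1e-05), and ZNF32 39.3 and 35.2 against 15.7 and 16.3 (-1.22 ± 0.09). Both lie on chromosome 10, as does ZNF22, with 64.5 and 59.2 CPM in WT and 31.0 and 31.1 in XRN1-null (-0.99 ± 0.07). Of the 3 that lie on chromosome 16, ZNF771 had 22.4 and 22.8 CPM against 10 and 10.4 (-1.15 ± 0.09). ZNF768 had 200 and 217 CPM against 98.8 and 101 (-1.06 ± 0.07), and ZNF629 had 87.6 and 92.0 against 42.8 and 45.1 (-1.03 ± 0.07). The 2 on chromosome 19 were ZNF580, with 44.1 and 46.7 CPM against 19.6 and 19.4 (-1.22 ± 0.07, FDR 1.5e-05), and ZNF865, with 23.4 and 27.6 against 11.9 and 13.2 (-1.02 ± 0.11). With offsets for GC content and gene width these log2 fold changes were -0.66 and -0.62, and both were still called. ZNF239 was under 2 CPM per kb in XRN1-null, and may likewise have been kept through WT. None of these 8 carries a KRAB or SCAN box by the search used.

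**Figure D2:**
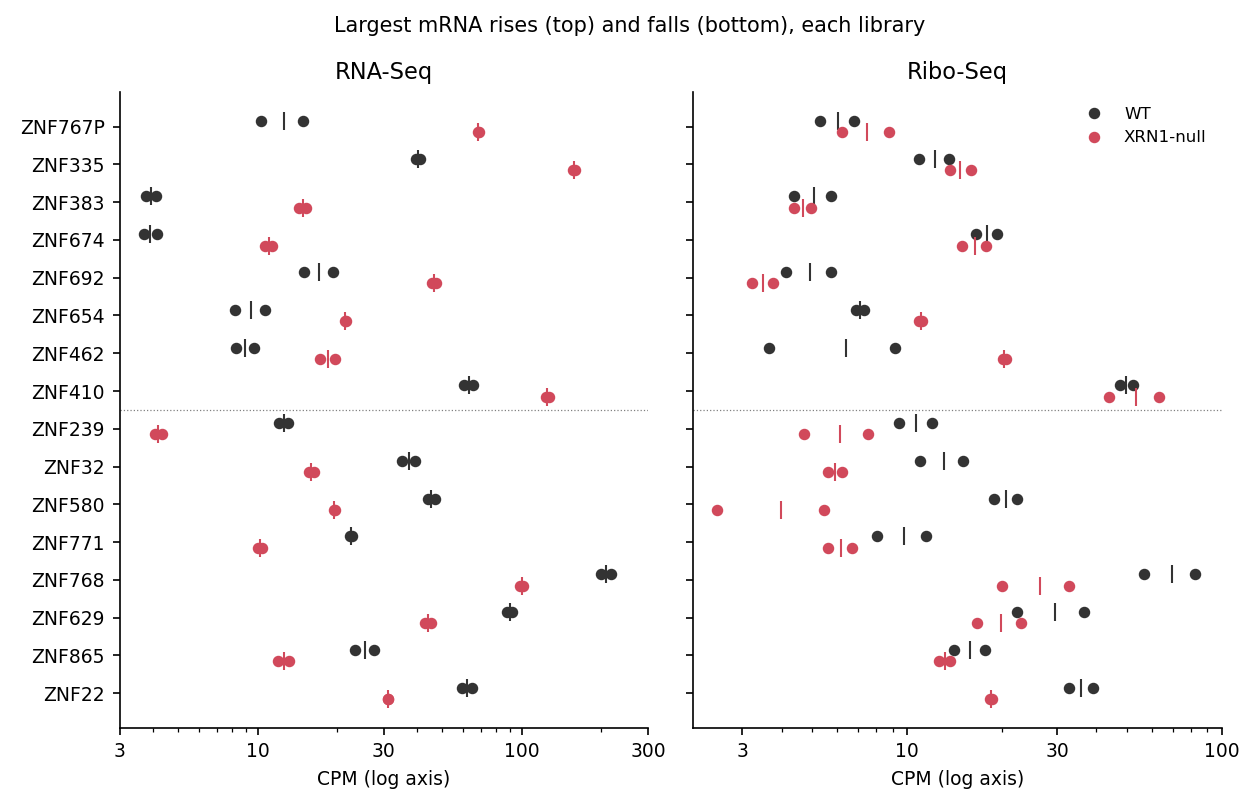
CPM (log axis) of the 8 largest mRNA rises (upper rows) and the 8 largest falls (lower rows) in each RNA-Seq library (left) and each Ribo-Seq library (right). Points are libraries, ticks are means of 2, WT is black and XRN1-null red, and the genotypes are apart in RNA-Seq, as the choice of these genes required, but overlap in Ribo-Seq for ZNF767P, ZNF383, ZNF674, ZNF410 and ZNF629.

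By protein class, 20 of the 119 KRAB members were higher and 13 lower, with a median log2 fold change of -0.01. Over all genes 22.9% were higher and 23.2% lower. Of the 101 with neither box, 21 were higher and 29 lower (median -0.07), and of the 12 with SCAN alone 1 was higher and 2 were lower. The KRAB and neither-box counts moved when 1 RNA-Seq library was left out. The medians then ran from -0.03 to 0.02 in KRAB members and from -0.05 to -0.02 in those with neither box. Besides ZNF383 and ZNF674, the largest KRAB rises were those of ZNF550 (0.94 ± 0.11, FDR 0.00022) and ZNF212 (0.78), and the largest KRAB falls those of ZNF619 (-0.98, under 2 CPM per kb in XRN1-null), ZNF764 (-0.90) and ZNF747 (-0.88). With offsets for GC content and gene width the KRAB counts became 14 higher and 15 lower. Members with neither box then had 19 and 28, beside 21.3% and 21.2% of all genes. Off chromosome 16, most of whose other genes were lower as given below, 20 of 112 KRAB members were higher and 9 lower. Of the 92 with neither box there, 20 were higher and 25 lower. This count was made after the chromosome values had been seen.

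Members with known roles outside KRAB repression included 9 that act on RNA, ribosomes or the spindle. Of these, 2 rose and 2 fell, beside 22.9% and 23.2% of all genes. ZNF638, a nuclear protein that silences unintegrated retroviral DNA, had 117 and 124 CPM in WT and 242 and 229 in XRN1-null (0.97 ± 0.07, FDR 2.5e-05). ZNF326, a subunit of a complex that couples transcription to splicing, had 72.4 and 88.9 CPM against 144 and 142 (0.83 ± 0.10, FDR 0.00024). ZNF593, which works in the maturation of the large ribosomal subunit, fell from 57.1 and 58.0 CPM to 36.0 and 35.3 (-0.69 ± 0.06, FDR 7.4e-05), and ZNF830, a splicing-associated protein, fell by 0.37 on the log2 scale. ZNF622, also a factor of the large subunit, had a log2 fold change of 0.35 ± 0.15 (FDR 0.069), and ZNF207 one of 0.02 ± 0.09.

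Of 17 transcription factors and cofactors outside the KRAB group, 15 were in the table, and 8 of them rose while none fell, beside 22.9% and 23.2% of all genes. ZNF462 is 1 of the 8, and as given above may be in the table only through its XRN1-null level. Besides ZNF335 and ZNF462 these were ZNF521, ZNF143, ZNF292, ZNF219, ZNF451 and ZNF148. ZNF521, a cofactor of early haematopoietic and neural cells, had 9.35 and 10.6 CPM in WT and 18.5 and 18.8 in XRN1-null (0.90 ± 0.10, FDR 0.00018). ZNF143, a promoter-binding activator, had 15.8 and 17.2 CPM against 28.1 and 28.6 (0.78 ± 0.08, FDR 0.00015), and ZNF292 had 26.1 and 27.2 against 45.4 and 44.8 (0.76 ± 0.07, FDR 7.5e-05). ZNF281, which was not called, had -0.19 ± 0.09, and the list's median was 0.36. The list was chosen with earlier results of these data known.

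Of 10 well-studied KRAB repressors, 6 were in the table, and 3 of these rose: ZNF274, which brings SETDB1 to the ends of other ZNF genes (0.72 ± 0.11, FDR 0.00067), ZNF202 (0.65 ± 0.08) and ZNF445, which guards imprints (0.42 ± 0.08). ZNF649, ZNF140 and ZNF33A passed in neither direction. The shares over all genes were 22.9% higher and 23.2% lower. All 20 co-repressors and heterochromatin partners of KRAB proteins were in the table, with 9 higher and 1 lower in XRN1-null, set against the same shares. TRIM28, the direct partner of the KRAB box, had a log2 fold change of -0.03 ± 0.12 (FDR 0.85). SETDB1 rose by 0.81 ± 0.06, the remodellers CHD3 and CHD4 by 1.35 ± 0.07 and 0.83 ± 0.17, ATRX by 1.19 ± 0.08, and the DNA methyltransferase DNMT1 by 1.12 ± 0.11. MORC2, MPHOSPH8, EHMT2 and SMARCAD1 rose by 0.40 to 0.78, and CBX5, the gene of HP1 alpha, fell by 0.64 on the log2 scale.

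The position of the genes moved with their mRNA changes on chromosome 16. Of its 19 members, 1 (ZNF276) was higher and 10 were lower, with a median log2 fold change of -0.48 in mRNA and -0.56 in RPF (-0.32 in RPF without WT Ribo-Seq replicate 2). The 423 other genes of this chromosome in the table did likewise, with 30 higher, 274 (64.8%) lower and medians of -0.56 and -0.58. Over the 22 other chromosomes with at least 50 such genes the medians ran from -0.15 to 0.10 in mRNA and from -0.18 to 0.16 in RPF. Neighbours within 2 Mb of the chromosome 16 members had median mRNA log2 fold changes of -0.63 to 0.06, with the highest values beside ZNF23 and ZNF821. ZNF276, on the other arm from ZNF768, had 64.6 and 57.1 CPM in WT and 87.5 and 88.7 in XRN1-null (0.53 ± 0.08). Without the chromosome 16 members, counted in this way after the chromosome values had been seen, 42 members were higher and 35 lower. DNA copy number was not measured in the data used here, and its part in these values was not tested.

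**Figure D3:**
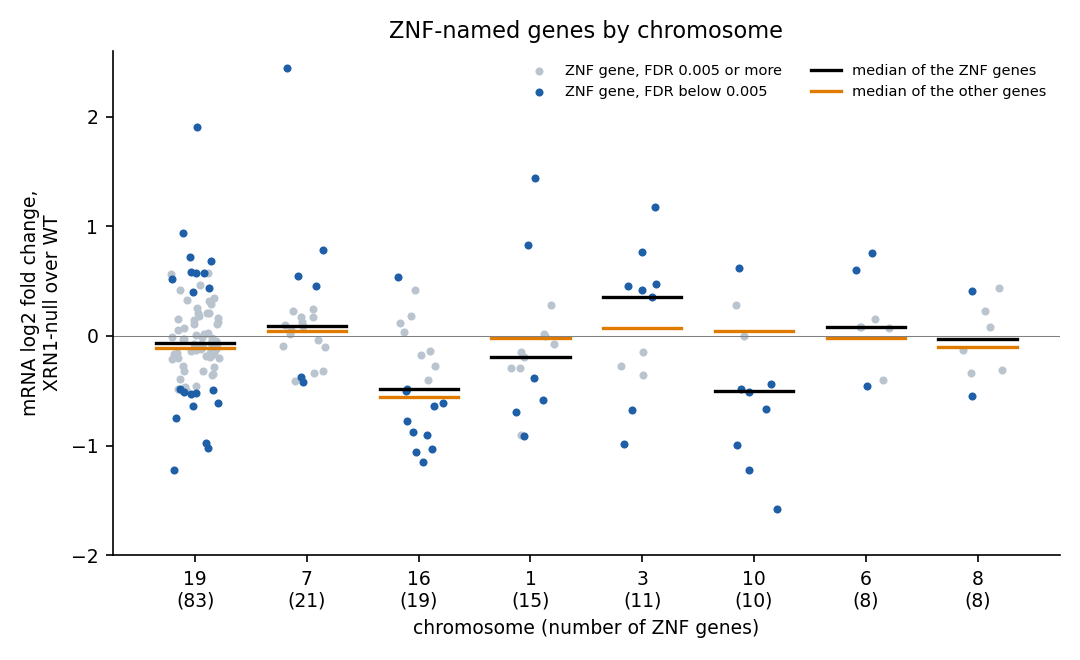
mRNA log2 fold change (XRN1-null over WT) of each ZNF gene on the 8 chromosomes with at least 8 of them. Black lines are medians of the ZNF genes and orange lines medians of the other genes of the chromosome; on chromosome 16 both lie near -0.5, while on chromosome 10 the ZNF median is -0.50 and the other genes' median 0.04.

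On chromosome 10, 7 of 10 members were lower and 1 was higher (median -0.50), while of its 382 other genes 64 were lower and 106 higher (median 0.04). Of those 7, 5 lie within a short stretch next to the centromere, which was picked out after its values were seen. All 5 were below 0 in each of the 12 other fits, but 3 were called lower without XRN1-null RNA-Seq replicate 1, 4 without XRN1-null RNA-Seq replicate 2 and 4 when RNA-Seq was thinned to Ribo-Seq depth. ZNF33B (43069633 to 43134018) had 49.0 and 50.8 CPM in WT and 38.0 and 35.8 in XRN1-null, and ZNF485 (44101867 to 44113352) had 9.43 and 8.92 against 5.23 and 6.32. Their log2 fold changes were -0.44 ± 0.07 and -0.67 ± 0.13. ZNF239 (44051792 to 44070066), ZNF32 (44139308 to 44144329) and ZNF22 (45496371 to 45500774) are among the largest falls given above.

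The other matched genes in this stretch, BMS1, CSGALNACT2 and HNRNPF, all lie between ZNF33B and ZNF239. They had log2 fold changes of 0.59 ± 0.12, 0.21 ± 0.08 and 0.04 ± 0.10. Between ZNF239 and ZNF22 the count table has no other matched gene, so no neighbour could be compared there. Genes flanking the stretch (ZNF37BP, ZFAND4, FAM21C and AGAP4) had values of 0.23 to 2.42. In RPF, ZNF32 and ZNF22 had log2 fold changes of -1.06 ± 0.29 (FDR 0.029) and -0.92 ± 0.18 (FDR 0.0075), whereas ZNF485 had 0.15 ± 0.39, with its 2 XRN1-null libraries at 37.2 and 10.9 CPM. The RPF values of ZNF485 therefore gave no direction. Across all 221 members with at least 5 table genes within 2 Mb, Pearson's r between the member's mRNA log2 fold change and its neighbours' median was 0.17, and 0.04 over the 202 off chromosome 16. This is a description across genes measured in the same libraries, and genes are not independent replicates.

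**Figure D4:**
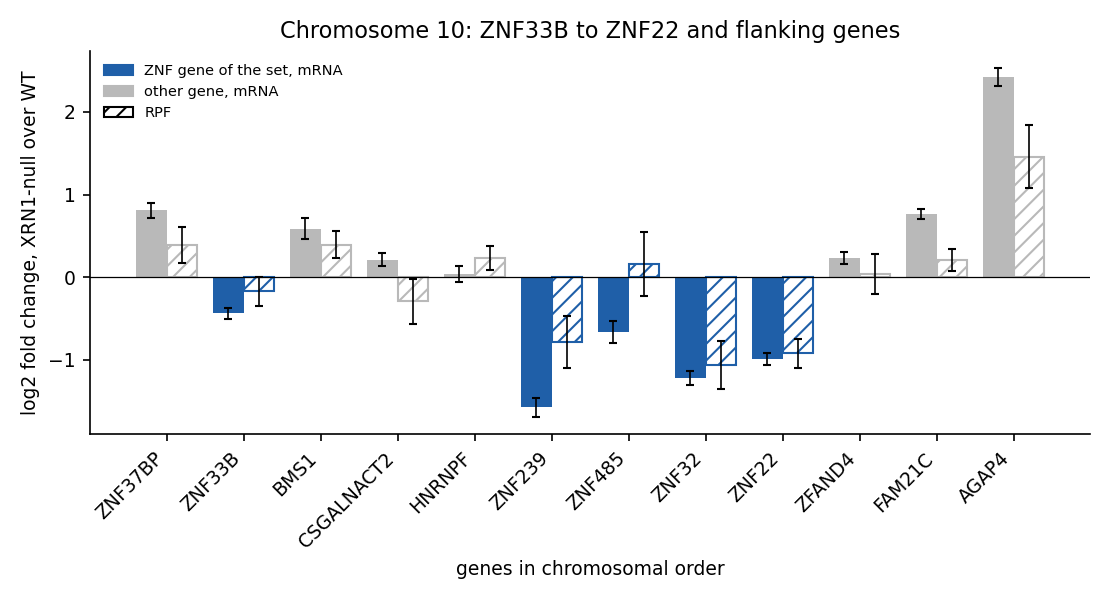
Log2 fold change (XRN1-null over WT, error bars 1 SE) of mRNA (filled bars) and RPF (hatched bars) for genes in order along chromosome 10. The 5 blue ZNF genes are below 0 in mRNA, from -0.44 to -1.57. The grey genes, above 0 in mRNA, lie between ZNF33B and ZNF239 or outside the stretch, with none between ZNF239 and ZNF22.

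Chromosome 19, which holds the most members, had 10 higher and 11 lower of 83 (median -0.07), and 97 higher and 162 lower of its 566 other genes (median -0.11). Its 62 KRAB members and its 21 other members had different counts, 9 higher and 3 lower against 1 higher and 8 lower. These counts moved when 1 RNA-Seq library was left out. The mRNA medians then ran from -0.01 to 0.02 in the KRAB members and from -0.35 to -0.20 in the others. The RPF medians were 0.21 and -0.36, and 0.31 and -0.08 without WT Ribo-Seq replicate 2. These groups also differed in GC content, with medians of 42.5% and 62.3%. With offsets for GC content and width the mRNA counts were 7 higher and 4 lower among the KRAB members and 1 and 7 among the others. The RPF medians were then 0.05 and -0.06, and the mRNA medians went from -0.02 and -0.27 to -0.10 and -0.13.

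The Ribo-Seq comparison asked which of these changes were seen in ribosome occupancy. At an FDR below 0.005, no member was higher (0.633% of all genes were) and 1 was lower (1.14%). The member was ZNF580, with 22.4 and 18.8 CPM of RPF in WT and 5.46 and 2.50 in XRN1-null, a log2 fold change of -2.27 ± 0.31 (FDR 0.0020). With offsets for GC content and gene width it was -1.55 (FDR 0.0075) and no longer called. Those values rest on 43, 82, 22 and 8 counts, and exons of ZNF580 overlap those of 2 genes on the same strand. Both genotypes were apart in RPF and in mRNA. DESeq2 called 1 member higher and 2 lower, beside 94 and 116 of all 10105 genes. The counts were 6 higher and 10 lower without WT Ribo-Seq replicate 1, 17 and 12 without WT Ribo-Seq replicate 2, 3 and 2 without XRN1-null Ribo-Seq replicate 1, and 1 and 1 without XRN1-null Ribo-Seq replicate 2. Of all 10105 genes 588 were higher and 707 lower without WT Ribo-Seq replicate 1, 1282 and 1087 without WT Ribo-Seq replicate 2, 84 and 72 without XRN1-null Ribo-Seq replicate 1, and 71 and 99 without XRN1-null Ribo-Seq replicate 2. Over the members, 74 (31.2%) had an unadjusted p under 0.05 in either direction, beside 33.0% of all genes, and 12 were higher and 18 lower at an FDR below 0.05, against 7.07% and 8.38% of all genes.

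The 12 higher at this looser threshold included ZNF521 (1.68 ± 0.43), ZNF462 (1.46 ± 0.29), ZNF292 (0.99 ± 0.18), ZNF217 (0.91), ZNF143 (0.79 ± 0.20) and ZNF503 (0.73 ± 0.14). ZNF462 had 3.65 and 9.19 CPM of RPF in WT and 20.1 and 20.6 in XRN1-null, with the WT libraries far apart, and ZNF292 had 16.1 and 22.1 against 37.7 and 41.8. Among the 18 lower were ZNF768, ZNF358, ZNF32, ZNF22 and ZNF593, which were also lower in mRNA. ZNF768 had 82.3 and 56.5 CPM of RPF in WT and 32.8 and 20 in XRN1-null (-1.33 ± 0.23, FDR 0.0052).

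RPF and mRNA changes of members followed each other in part. Pearson's r between the 2 log2 fold changes was 0.52 over the 237 members (Spearman's rho 0.54) and 0.67 over all genes, a description across genes of the same libraries. Of the 43 members that rose in mRNA, 35 (81.4%) had an RPF log2 fold change above 0, beside 83.1% of all genes that rose. Of the 45 that fell, 36 (80.0%) had one under 0, beside 94.1% of all genes that fell, a difference that was not tested. Their median RPF log2 fold changes were 0.34 and -0.56. Among all genes called in mRNA these medians were 0.33 and -0.40.

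**Figure D5:**
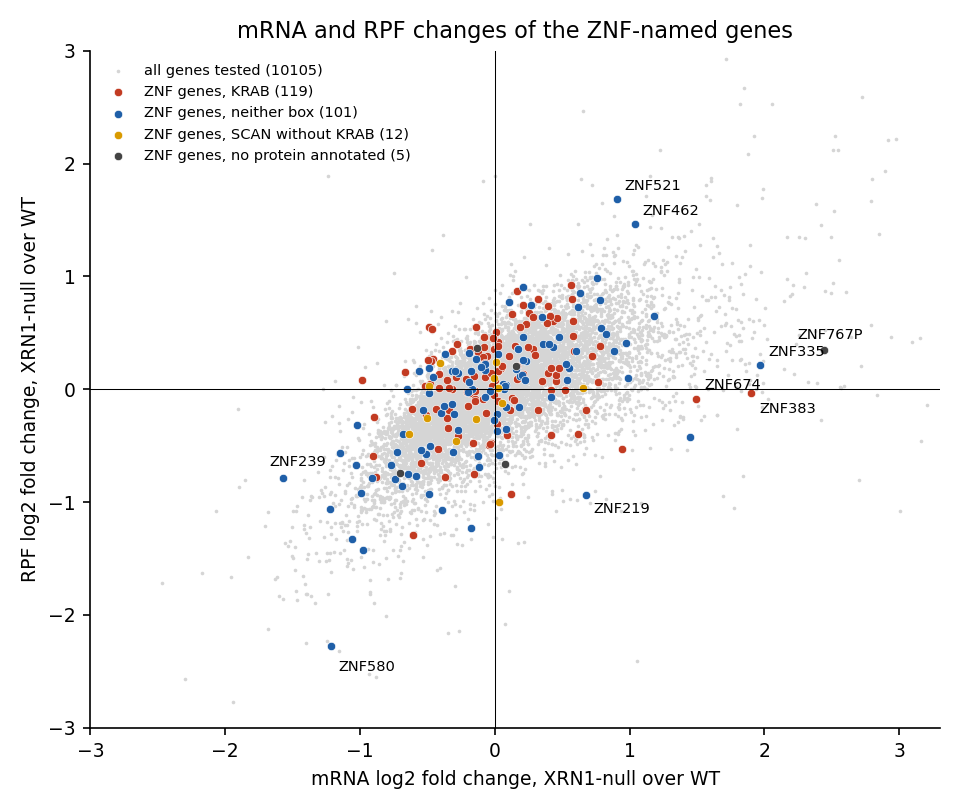
mRNA against RPF log2 fold change (XRN1-null over WT) of the ZNF genes, coloured by protein class, over all 10105 genes in grey. ZNF335, ZNF674, ZNF383 and ZNF767P lie to the right with RPF changes from -0.08 to 0.35, and ZNF580 lies lowest at -2.27.

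The TE comparison tested whether RPF and mRNA changed to a different extent, as the interaction of assay and genotype over all 8 libraries. No member was higher (0.0495% of all genes were) and 2 were lower (1.78%) at an FDR below 0.005. DESeq2 called 0 higher and 9 lower, beside 3.19% of all genes lower, and 48 members (20.3%) had an unadjusted p under 0.05 in either direction, beside 23.3% of all genes. The ratios given per replicate divide libraries of the same number, which the labels do not tie to the same culture, and the fit does not use the numbers. With same-numbered RNA-Seq and Ribo-Seq libraries as a block, 1 member was higher and 9 were lower, beside 0.544% and 4.30% of all genes. In ZNF335, TE was 0.266 and 0.342 in WT and 0.0857 and 0.102 in XRN1-null (log2 change -1.76 ± 0.21, FDR 0.00050). Its RPF was 10.9 and 13.6 CPM in WT and 13.7 and 15.9 in XRN1-null (0.22 ± 0.23, FDR 0.54), beside the mRNA log2 fold change of 1.97 given above. In ZNF674, TE was 5.21 and 3.99 in WT and 1.57 and 1.40 in XRN1-null (-1.57 ± 0.23, FDR 0.0020), with RPF at 19.3 and 16.5 against 17.9 and 15.0 CPM. It is also the gene named above as possibly kept in the table through its XRN1-null mRNA level. Of the 8 fits that left out 1 library, ZNF674 failed the threshold in 6, without either XRN1-null RNA-Seq library or any of the Ribo-Seq libraries (FDR 0.0053 to 0.020). ZNF335 failed it in 2, without WT Ribo-Seq replicate 2 (FDR 0.017) and without XRN1-null Ribo-Seq replicate 1 (FDR 0.013).

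At an FDR below 0.05, 3 members were higher and 12 lower in TE, against 1.02% and 6.46% of all genes. The lower ones included ZNF767P, ZNF383, ZNF692, ZNF550 and ZNF410, which rose in mRNA, and ZNF219. In ZNF383, RPF stood at 5.73 and 4.36 CPM in WT and 4.97 and 4.37 in XRN1-null, on 11 to 20 counts per library, and the TE log2 change was -1.93 ± 0.36 (FDR 0.0073). ZNF219, a nuclear factor that works with SOX9 in cartilage, had 21.1 and 24.0 CPM of mRNA in WT against 35.8 and 36.2, while its RPF went from 35.4 and 20.7 to 11.7 and 15.9. Its log2 changes were 0.67 ± 0.09 in mRNA, -0.94 ± 0.27 in RPF and -1.60 ± 0.29 in TE (FDR 0.0061). The 3 higher in TE were ZNF619 (1.07), ZNF254 (1.00 ± 0.20, FDR 0.010) and ZNF518A (0.66). ZNF619 and ZNF254 had over 2 CPM per kb of mRNA in WT and under 2 in XRN1-null, so they too may have been kept in the table through the genotype where their mRNA is high, which bears on their TE change. ZNF254 had TE values of 1.73 and 1.71 in WT and 3.20 and 3.71 in XRN1-null.

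Across the classes, the median TE log2 change was 0.15 in KRAB members and 0.02 in those with neither box, against 0.01 over all genes. With GC and width offsets these class medians were 0.11 and 0.06. Over the 8 fits that left out 1 library the ranges of these class medians overlapped, although the KRAB median was the higher of the pair in each fit. In KRAB members the lowest was 0.06 (without XRN1-null Ribo-Seq replicate 2) and the highest 0.22 (without XRN1-null Ribo-Seq replicate 1), and in those with neither box they were -0.01 (without WT Ribo-Seq replicate 1) and 0.15 (without WT Ribo-Seq replicate 2). In single libraries the median TE of KRAB members was 0.909 and 1.02 in XRN1-null and 0.772 and 0.942 in WT, so that the XRN1-null value of replicate 1 lay within the WT range. In those with neither box it was 0.634 and 0.601 in XRN1-null and 0.548 and 0.648 in WT, which overlap too. Without WT Ribo-Seq replicate 2 the median RPF log2 fold change of all members was 0.20 and without WT Ribo-Seq replicate 1 it was 0.02, and without XRN1-null Ribo-Seq replicate 2 it was 0.04, against 0.08 with all libraries. With GC and width offsets it was -0.0049.

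The 16 members with either of the printed windows, all of them KRAB genes and 8 on chromosome 19, can share footprints with each other. A median of 35.4% of their 29-nt windows occurs elsewhere, from 7.81% in ZNF267 to 49.4%. All 16 had an RPF log2 fold change above 0, from 0.00 to 0.61 (median 0.37). All 16 also had a TE log2 change above 0, from 0.04 to 1.00 (median 0.39). Above 0 in RPF and TE were 49.6% and 51.0% of all genes, and 62.2% and 64.7% of KRAB members. The mRNA of the 16 had a median of -0.08, with 1 called higher and 1 lower, beside 22.9% and 23.2% of all genes. None of the RPF or TE changes was called. The mean TE of the 16 ranged from 0.569 to 2.47 in WT (median 1.53) and from 0.778 to 3.53 in XRN1-null (median 1.91). With GC and width offsets 12 of 16 were above 0 in RPF and 13 in TE, with medians of 0.13 and 0.28, and without WT Ribo-Seq replicate 1 these counts were 14 and 15. Without WT RNA-Seq replicate 1 the mRNA median was 0.04 and without WT RNA-Seq replicate 2 it was -0.12, and without WT Ribo-Seq replicate 2 the TE median was 0.59. Since these genes can share footprints, they are not 16 separate measurements, and the part of read assignment in their values was not tested.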

How the data were processed

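RNA-Seq and Ribo-Seq were carried out on WT and XRN1-null HEK293T cells (2 biological replicates per group). The authors filtered rRNA reads with Bowtie2, aligned the others to hg19 with Tophat2, kept footprints of 29 and 30 nt, counted reads with QuasR, and deposited unnormalised counts per gene for genes with an FPKM above 2, with a width in nt. Mates of a pair may have been counted separately. Deposited fold changes, p-values and TE ratios of the authors' own comparisons were not used.

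The members and gene lists were chosen with earlier results of these data known. Counts of all 10105 genes were fitted with edgeR 4.0.16 in R 4.3.3 (TMM within each assay, quasi-likelihood test, Benjamini-Hochberg over all genes, FDR below 0.005, genotype as the only term). TE was the interaction of assay and genotype over the 8 libraries. Standard errors are the log2 fold change over the square root of F. CPM used TMM-scaled totals. Members named were the 8 largest called rises and falls of mRNA that held for each WT library against each null library, all members called in RPF or TE, the extremes of WT level and TE, and the role lists. Those given at an FDR of 0.05, the other KRAB genes and the chromosome 10 stretch were added after their values were seen.

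Positions, protein classes and 29-nt windows came from GENCODE 44 mapped to GRCh37, to which 99.2% of genes were matched, 472 by an older symbol (Python 3.11.15). KRAB boxes were called at 6 or more of 7 conserved residues. Replicate libraries differed by more than sampling noise. Changes were simulated in genes drawn from the whole table, with a common dispersion per assay. Log2 fold changes of 1 and 2 were recovered for 100% and 100% of these genes in RNA-Seq. In Ribo-Seq 81% and 97% were recovered, and in TE 67% and 96%. Median WT RPF was 4.08 CPM per kb in members and 10.9 over all genes, and recovery among members was not measured. Alternatives were RLE factors, library totals, DESeq2 1.42.0, replicate or culture blocks, at least 10 counts, other thresholds, GC and width offsets, RNA-Seq thinned to Ribo-Seq depth, leaving out each library and, chosen after seeing the data, counting members off chromosome 16 or at 2 or more CPM per kb of mRNA in both genotypes. P-values measure the spread between these replicates.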

Additional observations from a re-analysis of the deposited data

How the results depend on the processing

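All 16 members named for mRNA rises or falls kept their direction and their call under the 12 other fits of RNA-Seq, leave-one-out included. With GC and width offsets the log2 fold change went from -1.22 to -0.66 in ZNF580 and from -1.02 to -0.62 in ZNF865. These 16 in mRNA, ZNF580 in RPF, and ZNF335 and ZNF674 in TE did not reverse, and other named members were not followed across settings. Counts of members moved by more than 1.5 times in these RNA-Seq settings: 24 were higher and 24 lower when thinned to Ribo-Seq depth, 70 were lower at FDR 0.05, and 7 were higher and 7 lower with a log2 fold change of at least 1. Leaving out 1 library gave 26 to 63 lower, with 26 lower without either XRN1-null library. Within 1.5 times were the 29 to 58 higher on leaving out 1 library, 35 higher and 46 lower with GC and width offsets, and 48 and 38 with library totals.

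In Ribo-Seq, where 0 were higher and 1 lower, RLE factors gave 2 lower, library totals 3 higher and 2 lower, DESeq2 1 higher and 2 lower, at least 10 counts 0 lower (ZNF580 has fewer in 1 library and was not tested), GC and width offsets 1 higher, and FDR 0.05 gave 12 higher and 18 lower. Leaving out 1 library gave 1 to 17 higher and 1 to 12 lower. With GC and width offsets ZNF580 had a log2 fold change of -1.55 (FDR 0.0075). Of all genes, RLE factors called 0.792% higher and 1.23% lower in Ribo-Seq, and library totals 1.32% and 1.62%. GC and width offsets called 0.891% and 1.22%. When RNA-Seq was thinned, 0.0495% of all genes were higher in TE. In TE, where 0 were higher and 2 lower, DESeq2 gave 9 lower, thinning 1 higher, counting the members at 2 or more CPM per kb of mRNA in both genotypes (chosen after seeing the data) 1 lower, FDR 0.05 3 higher and 12 lower, and leaving out 1 library 0 higher and 0 to 3 lower.

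The replicate numbers are shared by the groups, but the labels do not say that a number marks a shared culture or day, and deviations of same-numbered libraries correlated at 0.19 in RNA-Seq and 0.080 in Ribo-Seq. With the replicate block, RNA-Seq gave 51 higher and 58 lower, Ribo-Seq 11 and 14, and TE 0 and 3, beside 28.3% and 27.8%, 6.10% and 6.58%, and 0.0693% and 1.88% of all genes. With GC and width offsets and the replicate block, Ribo-Seq gave 9 higher and 8 lower, beside 5.21% and 5.84% of all genes. The culture block gave 1 higher and 9 lower in TE, and deviations of same-numbered RNA-Seq and Ribo-Seq libraries correlated at 0.355 in WT and 0.033 in XRN1-null. The cause of these shifts was not tested. The median member had 27 to 67 counts per Ribo-Seq library against 660 to 773 in RNA-Seq, and 14 members had under 10 counts in WT Ribo-Seq replicate 1.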

Other observations

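Zinc finger genes of other names were counted in the same fits, in which 22.9% of all genes were higher and 23.2% lower in RNA-Seq. Of 17 ZSCAN- and ZKSCAN-named genes, 6 were higher and 0 lower in RNA-Seq (edgeR quasi-likelihood test, FDR below 0.005, 12, or 70.6%, with an unadjusted p under 0.05 in either direction beside 69.9% of all genes), with a median mRNA log2 fold change of 0.32, a median RPF change of -0.11 and a median TE change of -0.43. Of 23 ZBTB-named genes, whose fingers are joined to a BTB domain, 6 were higher and 4 lower, with medians of -0.05 in mRNA and 0.25 in RPF. Of 11 ZFP-named genes 1 was higher and 4 were lower. These lists were chosen with earlier results of these data known.

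The table has 3 rows of readthrough transcripts named after members, and reads shared with those members were not measured. ZNF559-ZNF177 rose in mRNA by 0.70 ± 0.13 (SE) on the log2 scale. ZNF670-ZNF695 had 0.61 ± 0.14 and ZNF664-FAM101A -0.43 ± 0.10, and neither was called.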
